A study of Homo sapiens with 18 samples.

Results

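The genes of plasma membrane repair described here are 36 named genes of the ESCRT machinery, the annexins with their S100 partners, the ferlins with SYT7 and EHD1, and the calpains with acid sphingomyelinase. They were taken by NCBI Gene ID from a table of 28395 Gene IDs, and 35 of the 36 had enough counts to be tested. PC-3 is a human prostate cancer cell line that grows without androgen. Cells were detached, suspended, and either pushed through a 30 gauge needle from a 5 mL syringe at 250 μL per s (sheared) or held in suspension meanwhile (static). Both were then kept unattached in poly-HEMA coated wells and sampled after 3 h, 12 h or 24 h. The medium of the experiment held albumin (5 mg/mL) and an insulin supplement in place of serum. Cytosolic RNA, taken after detergent lysis, gave 18 libraries in 6 groups of 3. Each pool of cells was split into a sheared and a static part that carry the same replicate number, and pools of different times were independent. All groups, static ones included, thus share the detachment and the suspension, and a single cell line is the only model.

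A tear in the plasma membrane lets calcium in, and calcium sets off several repair steps. Annexins are calcium-dependent proteins that bind the inner face of the torn membrane, some of them as complexes with an S100 protein. ALG-2 (PDCD6) senses calcium and brings ALIX (PDCD6IP) and ESCRT-III to the wound, where ESCRT-III filaments of CHMP proteins pinch off the damaged membrane and the ATPases VPS4A and VPS4B take the filaments apart. Ferlins and SYT7 are calcium sensors of vesicle fusion, calpains are calcium-activated proteases that cleave the cortical skeleton, and acid sphingomyelinase (SMPD1), released from lysosomes, drives uptake of the lesion. Repair itself works within minutes on existing protein, while the values below are transcript levels hours later.

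Libraries held 16400487 to 25862360 counts, and levels are given as CPM, the counts per 1e6 counts of a library after TMM scaling. The sheared 24 h library of replicate 3 stood apart, with the lowest scaling factor (0.721), the fewest genes detected (17007) and the largest share of counts in its 100 most abundant genes (28.2%). Shear effects of the members called at 24 h are therefore given with and without that pool. For members not called at 24 h, shear effects without it are not given. The cells carried epithelial cancer cell markers, with KRT8, KRT18, KRT19, EPCAM and VIM summing to 3063 to 9773 CPM, and KLK2 and KLK3 were at or near 0. Summed haematopoietic markers stayed between 0.225 and 1.42 CPM and skeletal muscle markers, in whose tissue DYSF is best known, between 0.0411 and 0.769 CPM. The batch label of the 3 h libraries differs from that of the 12 h and 24 h libraries, so time and batch cannot be told apart between 3 h and the later times, while each sheared against static comparison lies within 1 batch. In bulk RNA, fewer cells with a transcript and less of it in each cell cannot be told apart.

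The start regions of CHMP1B, VPS37B and ANXA2 are shown first, as genes picked with the expression values known. The shear effect of VPS37B did not pass the test described below. RefSeq (GRCh38.p14) gave a start for 30 of the 36 genes, and the 250 bases before it were searched on both strands. The motifs were the cAMP response element (CRE, TGACGTCA), the AP-1 site (TGACTCA, which reads TGAGTCA on the other strand), the E-box (CACGTG), the TEAD site (GGAATG), the GC box (GGGCGG) and the CArG box. Matches to different motifs do not overlap in the stretches below. Capitals mark a CRE or an AP-1 site. CHMP1B is shown at chr18:11851163-11851395 on the plus strand and ANXA2 at chr15:60398044-60398236 on the minus strand, each without the 17 and 57 bases that GENCODE 29 places in an exon. The VPS37B window lies wholly in a GENCODE exon, so 30 bases round each CRE are shown, at chr12:122896309-122896338 and chr12:122896170-122896199 on the minus strand.
CHMP1B: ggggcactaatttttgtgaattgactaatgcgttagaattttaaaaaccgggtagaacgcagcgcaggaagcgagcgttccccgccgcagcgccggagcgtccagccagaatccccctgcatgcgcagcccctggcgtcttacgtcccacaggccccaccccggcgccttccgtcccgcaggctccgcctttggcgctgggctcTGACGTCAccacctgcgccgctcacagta
VPS37B, first site: ccgagccgcagTGACGTCAttaatgcgctc
VPS37B, second site: ccgcgcggtgaTGACGTCAcgacccagggc
ANXA2: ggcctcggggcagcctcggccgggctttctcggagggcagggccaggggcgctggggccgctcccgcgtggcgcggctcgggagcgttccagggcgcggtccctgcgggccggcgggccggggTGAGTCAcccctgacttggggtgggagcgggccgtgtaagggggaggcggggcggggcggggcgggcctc

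The CRE of CHMP1B begins 46 bases before the RefSeq start, and those of VPS37B begin 203 and 64 bases before it. These were the only CREs in the 30 windows, 6.7% of them, against 1.77% of 27305 promoters of the same length. AP-1 sites lay in ANXA2, 127 bases before the start, and in CAPN2, at 178 and 143 bases, against 4.16% of all promoters. E-boxes were found in 4 windows (CHMP4A, VPS37B, PDCD6IP and ANXA6, 13.3% against 6.49%), a TEAD site in 1 (VPS37B, 3.3% against 11.9%), a CArG box in 2 (ANXA7 and CAPN2, 6.7% against 1.14%) and a GC box in 20 (66.7% against 42.31%). The windows of ANXA3 and MYOF held none of the 6 motifs, and that of S100A10 held only a GC box. The motifs were picked with the expression values known, and a match is a description of the letters.

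The members differed widely in level before any comparison of groups. Per kilobase of principal transcript, S100A11 was the most abundant in static 3 h cells at 650 ± 55.6 CPM per kb (SD, n = 3), followed by ANXA2 at 541 ± 175, ANXA7 at 370.2 ± 8.92, S100A10 at 319 ± 8.68 and CAPN2 at 177 ± 6.59. S100A11 and S100A10 are small S100 proteins that pair with ANXA1 and ANXA2, and ANXA7 binds membranes and ALG-2. The spread of ANXA2 (341 to 656 CPM per kb) covers the mean levels of ANXA7 and S100A11, so these 3 libraries do not separate the order. At the low end stood DYSF, dysferlin, at 6.99 ± 1.09 CPM per kb. The order depends on the length used: per kb of all exons of a gene S100A11 stayed first (568), followed by ANXA7 (281) and S100A10 (249), ANXA2 came in place 4 (103) and CAPN2 in place 8 (72.0), and ANXA4 (4.25) stood below DYSF (5.55). CHMP3, a core ESCRT-III subunit, had 0 to 7 counts per library and was not tested. Its gene shares exons with the readthrough gene RNF103-CHMP3, which had 0 to 37 counts, and how reads shared by both were assigned is not given in the sources used here.

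**Figure D1:**
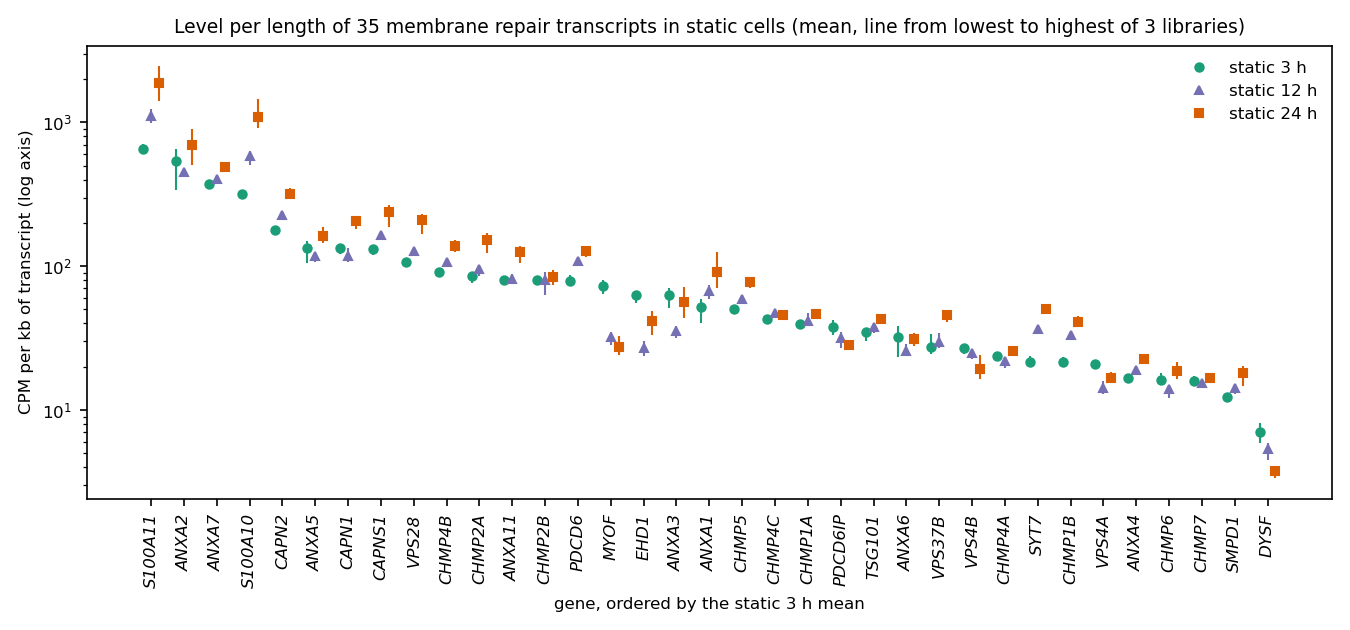
Level of the 35 tested members in static cells, as CPM per kb of principal transcript on a log axis, with the mean (point) and the lowest to highest (line) of 3 libraries at 3 h, 12 h and 24 h. S100A11 is at the top and DYSF at the bottom at each time, and S100A10, S100A11 and CAPN1 are higher at 24 h than at 12 h.

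At 3 h after shear, CHMP1B alone among the 35 members passed the test. CHMP1B is an ESCRT-III subunit that works late in filament assembly and recruits the microtubule-severing enzyme spastin. It lies at chr18:11851396-11854449 (GRCh38, GENCODE 29) in a single exon. Static libraries of replicates 1, 2 and 3 held 62.2, 64.9 and 71.8 CPM and sheared libraries 100.6, 101.2 and 103.5 CPM. The groups did not overlap, and the sheared libraries lay within 3 CPM of each other. CHMP1B rose by 0.62 ± 0.12 (log2 fold change ± SE, edgeR quasi-likelihood test, Benjamini-Hochberg adjusted p = 0.00741), in 3 of 3 pools. That makes 1 of 35 members higher and 0 lower, against 1.12% higher and 0.342% lower of the 15189 genes tested.

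The CHMP1B call needed all 3 pools of that time. Its adjusted p was 0.160, 0.132 and 0.0661 without replicate 1, 2 or 3 of 3 h, although the log2 fold change stayed between 0.58 and 0.67. The authors' deposited table gives 0.62 with an adjusted p of 3.99e-04. CHMP1B overlaps its antisense gene CHMP1B-AS1 over 18.1% of its exon bases, and whether counting used strand is not given in the sources used here.

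VPS37B, a subunit of ESCRT-I, which acts upstream of ESCRT-III, had the next smallest p. Its static libraries held 74.4, 75.2 and 101.5 CPM and its sheared libraries 111.2, 104.6 and 128.3 CPM. Every sheared library was above every static one, with replicate 3 the highest of both groups. The difference was 0.46 ± 0.15 with an adjusted p of 0.190 in edgeR, short of the threshold. It passed with no filter on low counts (adjusted p = 0.0181), in the 6 libraries of that time alone (2.82e-05) and without 24 h replicate 3 (0.00623). Its exons overlap AC027290.2 on the same strand over 27.9% of their bases. ANXA11, S100A10 and EHD1 also had sheared libraries above static ones without passing the test, which makes 5 of 35 against 9.93% of all genes. No member had all sheared libraries below all static ones, against 8.83%.

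The other members did not pass at 3 h. Log2 fold changes of the other 11 ESCRT-III and VPS4 genes ran from -0.09 to 0.14, those of the 8 annexins from -0.11 to 0.18 and those of the calpains and SMPD1 from -0.05 to 0.12. S100A10 and S100A11 differed by 0.24 ± 0.11 and 0.12 ± 0.10, and the ferlins, SYT7 and EHD1 lay between -0.24 (DYSF) and 0.17 (EHD1). In the 6 libraries of that time alone S100A10 (0.23, edgeR adjusted p = 0.00618) and ANXA11 (0.17, 0.0353) passed as higher and DYSF (-0.24, 0.0473) as lower. CHMP4B, the main filament-forming subunit, measured 149.1, 141.8 and 155.6 CPM in static and 165.0, 149.4 and 163.0 CPM in sheared libraries, overlapping groups with a difference of 0.10 ± 0.10. The median over the 35 members was 0.06, beside 0.01 over all genes. In edgeR 3 members had an unadjusted p below 0.05 at 3 h, and DESeq2 called 1 higher and 0 lower. A p that missed the threshold does not show that a gene was unchanged. The 5 fibroblast markers, all detected somewhere, summed at 3 h to between 17.5 and 19.2 CPM without shear and to between 31.0 and 36.6 CPM with it. COL1A1 carried that sum and passed as higher in edgeR, with a log2 fold change of 1.19. The authors' deposited table gives it at 1.18 with an adjusted p of 7.54e-08. COL1A2 and DCN were near 0 (at most 0.684 and 0.247 CPM in any library). COL3A1 went the other way (-1.07 ± 0.40, edgeR adjusted p = 0.339) and LUM differed by -0.06 ± 0.31, neither past the threshold. The 3 nuclear-retained RNAs tested had negative differences at 3 h, with a median of -0.82 and 0 past the threshold in edgeR (1 at an unadjusted p below 0.05). MALAT1 among them stood at 29.5, 25.8 and 23.9 CPM in static and 15.1, 14.4 and 15.1 CPM in sheared libraries. The part of these markers in the 3 h values, CHMP1B included, was not tested.

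**Figure D2:**
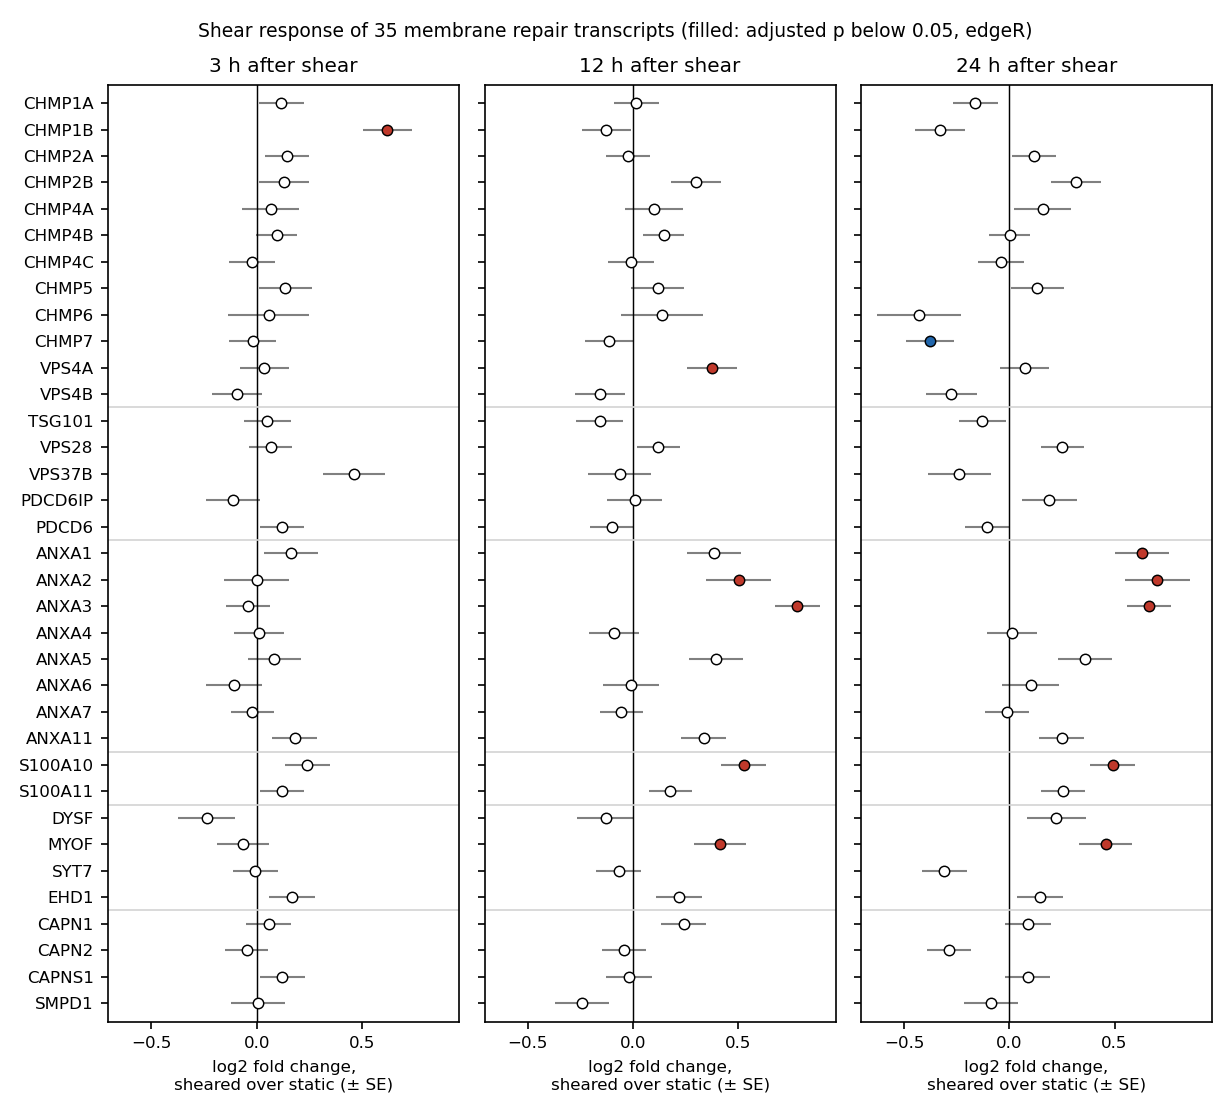
Log2 fold change of sheared over static cells (point) with its SE (line) for the 35 tested members at 3 h, 12 h and 24 h, grouped by role, filled where the adjusted p was below 0.05. CHMP1B stands out at 3 h, and ANXA2, ANXA3, S100A10 and MYOF are filled at 12 h and 24 h.

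At 12 h, 5 members were higher in sheared cells (VPS4A, ANXA2, ANXA3, S100A10 and MYOF) and 0 were lower, against 6.29% higher and 4.55% lower of all genes tested. As shares of the 35 members these are 14.3% and 0%. In edgeR 10 members had an unadjusted p below 0.05, each of them higher in sheared cells, and DESeq2 called 7 higher and 0 lower. The median over the members was 0.02, beside -0.01 over all genes, with 19 members above and 16 below 0. The 4 endothelial markers summed at 12 h to between 66.0 and 85.4 CPM without shear and to between 40.2 and 55.9 CPM with it, nearly all of it PECAM1, with VWF and CDH5 near 0. Its part in the 12 h values was not tested.

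ANXA3, a calcium-dependent phospholipid-binding annexin at chr4:78551519-78610451, had the clearest change. Static libraries held 64.0, 60.7 and 52.3 CPM and sheared libraries 106.8, 92.1 and 105.0 CPM. The groups stood well apart, and ANXA3 rose by 0.78 ± 0.11 (edgeR adjusted p = 2.33e-04), in 3 of 3 pools. It passed under all 16 alternatives, with a highest adjusted p of 0.0489 without the replicate block. The authors' deposited table gives 0.77 with an adjusted p of 0.0163, and ANXA3 was the only member past 0.05 there at 12 h, where 3.11% of genes were higher and 2.43% lower.

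S100A10 and ANXA2 form a complex in which an S100A10 dimer joins 2 ANXA2 molecules, holding membranes together and anchoring the protein AHNAK. S100A10 (chr1:151982915-151994390) measured 731, 606 and 758 CPM in static libraries and 1008, 1008 and 987 CPM in sheared ones. The groups did not overlap and the sheared libraries were close together. S100A10 rose by 0.53 ± 0.11 (edgeR adjusted p = 0.00538), which failed without 12 h replicate 2 (0.0638). ANXA2 (chr15:60347134-60402883) measured 776, 787 and 701 CPM in static and 1291, 1201 and 783 CPM in sheared libraries. Replicate 3 of the sheared cells lay within the static range, while the sheared libraries of replicates 1 and 2 lay far above it.

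ANXA2 rose by 0.50 ± 0.15 (edgeR adjusted p = 0.0454), close to the threshold. It did not pass without 12 h replicate 1 (0.289) or 2 (0.270), without any 3 h pool (0.0686 to 0.0735), without 24 h replicate 1 (0.0608), with DESeq2 size factors (0.0529) or with total counts in place of TMM (0.0639). Its processed copy ANXA2P2 stood at 1.41 to 9.67 CPM, beside 571 to 3443 CPM of ANXA2, and how reads that fit both were assigned is not given in the sources used here.

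MYOF, the ferlin known for membrane fusion and receptor recycling in cancer and endothelial cells, lies at chr10:93306429-93482317. Static libraries held 221, 233 and 192 CPM and sheared libraries 297, 306 and 256 CPM. The groups did not overlap, with replicate 3 lowest in both. MYOF rose by 0.41 ± 0.12 (edgeR adjusted p = 0.0412), but not without 12 h replicate 1, 2 or 3 (0.176, 0.167 and 0.107), without any 3 h pool (0.0650 to 0.0719) or with total counts (0.26, adjusted p = 0.119). VPS4A, the ATPase that disassembles ESCRT-III, was at 55.9, 52.7 and 65.4 CPM in static and 58.5, 82.1 and 87.2 CPM in sheared libraries. Replicate 1 barely differed and the groups overlapped.

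VPS4A (chr16:69311356-69326939) rose by 0.37 ± 0.12 (edgeR adjusted p = 0.0482), the weakest of the 5. It fell short without 12 h replicate 2 (0.24, adjusted p = 0.349) or 3 (0.145), without any 3 h pool (0.0802 to 0.0835), without 24 h replicate 1 (0.0531), with DESeq2 size factors (0.0524), in the libraries of that time alone (0.0557) and with total counts (0.22, adjusted p = 0.262). Of its 5670 exon bases, 1245 lie also in COG8 on the other strand and 1191 in AC026464.4 on its own strand, so its counts are uncertain. Its paralog VPS4B differed by -0.16 ± 0.12 and did not pass.

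Further annexins lay just outside the threshold at 12 h. ANXA11, which tethers to lysosomes and binds ALG-2, differed by 0.34 ± 0.11 (edgeR adjusted p = 0.0529), ANXA5, which forms lattices on torn membrane, by 0.39 ± 0.13 (0.0554) and ANXA1, the best known early repair annexin, by 0.39 ± 0.13 (0.0617). All sheared libraries of ANXA11 and ANXA5 were above all static ones. DESeq2 called ANXA11 and ANXA5 (adjusted p of 0.0308 and 0.0449). ANXA4, ANXA6 and ANXA7 lay between -0.09 and -0.01, so the 8 annexins split, with 2 past the threshold, 3 just short of it and 3 near 0. Over all members, 7 had sheared libraries above static ones without overlap and 3 below (CHMP1B, ANXA4 and ANXA7), against 14.6% and 14.4% of all genes.

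The core and upstream ESCRT genes and the calpains did not pass at 12 h, apart from VPS4A. The 11 other ESCRT-III and VPS4 genes lay between -0.16 and 0.30, the highest being CHMP2B (0.30 ± 0.12, edgeR adjusted p = 0.12), which passed without 12 h replicate 2 (0.49, 0.0428). CHMP4B stood at 185, 166 and 178 CPM in static and 198, 189 and 197 CPM in sheared libraries, not overlapping but with a difference of 0.15 ± 0.10 (edgeR adjusted p = 0.369). CHMP1B had turned from the 3 h pattern, with 97.0, 100.1 and 105.8 CPM in static and 92.1, 90.9 and 94.4 CPM in sheared libraries, a difference of -0.13 ± 0.12 (edgeR adjusted p = 0.532). The 5 ESCRT-I, ALIX and ALG-2 genes lay between -0.16 and 0.12, and the calpains and SMPD1 between -0.24 and 0.24, with 0 called by edgeR or DESeq2 in either group. CAPN1, with 0.24 ± 0.11, was the 1 gene among them at an unadjusted p below 0.05 (0.0386).

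**Figure D3:**
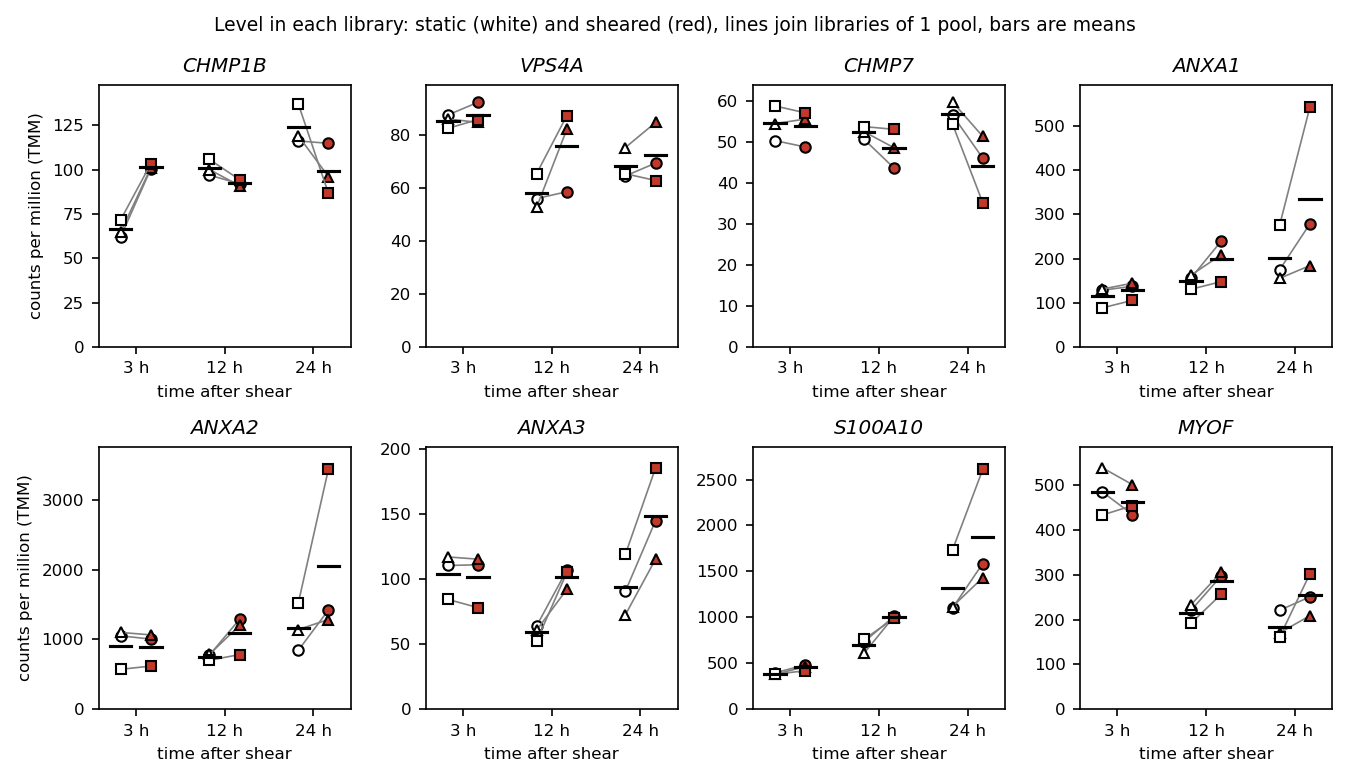
CPM of 8 members in each of the 18 libraries at 3 h, 12 h and 24 h, static in white and sheared in red, with lines joining the libraries of 1 pool, symbols for replicates 1 (circle), 2 (triangle) and 3 (square), and bars for group means. The ANXA2 library of sheared replicate 3 at 24 h reaches 3443 CPM, while CHMP1B at 3 h has 3 sheared libraries between 100.6 and 103.5 CPM.

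At 24 h, higher in sheared cells were 5 members, ANXA1, ANXA2, ANXA3, S100A10 and MYOF, and 1 was lower, CHMP7, against 9.13% higher and 8.07% lower of all genes. These are 14.3% and 2.86% of the 35 members. ANXA2, ANXA3, S100A10 and MYOF passed at both later times. The groups of each of the 5 higher members overlapped, with a static library of 1 pool above a sheared library of another, and each was higher in 3 of 3 pools.

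ANXA1 (chr9:73151757-73170393) measured 175, 155 and 277 CPM in static and 279, 184 and 544 CPM in sheared libraries. Replicate 3 was highest in both groups and replicate 2 lowest. ANXA1 rose by 0.63 ± 0.13 (edgeR adjusted p = 0.00263), and by 0.48 (0.0214) without the pool of replicate 3. ANXA2 measured 842, 1141 and 1517 CPM in static and 1421, 1286 and 3443 CPM in sheared libraries. The sheared replicate 3 library held more than any other library of the series, and ANXA2 rose by 0.70 ± 0.16 (adjusted p = 0.00492), or by 0.48 (0.0400) without that pool.

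ANXA3 measured 90.6, 72.5 and 119.0 CPM in static and 144.9, 115.3 and 185.4 CPM in sheared libraries. The order of the pools was the same in both groups, and ANXA3 rose by 0.66 ± 0.11 (edgeR adjusted p = 3.43e-04), or 0.69 (5.73e-04) without replicate 3. S100A10 measured 1101, 1117 and 1736 CPM in static and 1585, 1431 and 2609 CPM in sheared libraries. S100A10 rose by 0.49 ± 0.11 (adjusted p = 0.00456), or 0.46 (0.0162) without replicate 3, but its adjusted p was 0.0565 in the 6 libraries of that time alone. Calls of these 4 genes held when any 1 of the 9 pools was left out.

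MYOF measured 221, 170.4 and 161 CPM in static and 251, 209 and 302 CPM in sheared libraries. Its pools ran in different orders in the 2 groups, and replicate 3 had the widest gap. MYOF rose by 0.46 ± 0.13 (edgeR adjusted p = 0.0183), and by 0.25 (0.178) without replicate 3, where it did not pass. It also missed in the libraries of that time alone (0.139) and with total counts (0.29, adjusted p = 0.0616). The authors' deposited table at 24 h gives ANXA3 at 0.68 (adjusted p = 0.0314) and MYOF at 0.49 (0.0452) as the only members past 0.05, where 5.98% of genes were higher and 3.35% lower.

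CHMP7, an ESCRT-II/ESCRT-III hybrid that starts filaments at the nuclear envelope, was the 1 member lower in sheared cells. Static libraries held 56.6, 59.8 and 54.4 CPM and sheared libraries 46.1, 51.4 and 35.2 CPM. The groups did not overlap, and sheared replicate 3 was the lowest of the series. CHMP7 fell by 0.38 on the log2 scale (SE 0.12, edgeR adjusted p = 0.0325). The call ended without 24 h replicate 1 (0.0575) or 3 (-0.24, adjusted p = 0.266), without any 3 h pool (0.0617 to 0.0645) and in the libraries of that time alone (0.213).

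Other ESCRT genes did not pass at 24 h. CHMP1B stood at 116, 119 and 137 CPM in static and 114.9, 96.2 and 86.7 CPM in sheared libraries, below without overlap, with a difference of -0.33 ± 0.12 (edgeR adjusted p = 0.0615). It passed with total counts (-0.49, adjusted p = 0.0145) and without 24 h replicate 1 (-0.49, 0.0194), an alternative that keeps the replicate 3 pool. CHMP6, which links ESCRT-II to ESCRT-III, differed by -0.43 ± 0.20 (adjusted p = 0.151), and passed with no filter on low counts (-0.44, 0.0406) and without 24 h replicate 2 (-0.85, 0.00309). VPS4B differed by -0.28 ± 0.12 (0.127) and passed with total counts (-0.44, 0.0310). CHMP4B was level, at 206, 224 and 250.4 CPM in static and 212, 237 and 232 CPM in sheared libraries (0.00 ± 0.10). SYT7, the lysosomal synaptotagmin, differed by -0.31 ± 0.11 (0.0527) and CAPN2, the catalytic subunit of m-calpain, by -0.29 ± 0.10 (0.0658), both below without overlap. With total counts both passed (-0.47, adjusted p = 0.00396, and -0.45, 0.00338), and SYT7 also without 24 h replicate 1 (-0.42, 0.0288) or 12 h replicate 2 (0.0444). With CHMP1B and CHMP7 these make 4 members below without overlap and 0 above, against 7.64% and 7.49% of all genes. CHMP2B (0.32 ± 0.12), VPS28 (0.25 ± 0.10), ANXA5 (0.36 ± 0.13) and ANXA11 (0.25 ± 0.11) lay on the other side and did not pass either. ANXA5 passed in DESeq2 (0.37, adjusted p = 0.0417) and, in edgeR, with no filter on low counts (0.35, 0.0334). It also passed without 24 h replicate 1 (0.48, 0.0471) or 2 (0.47, 0.0361), alternatives that keep the replicate 3 pool. CHMP2B passed without 12 h replicate 2 (0.32, adjusted p = 0.0308) or 3 (0.33, 0.0496). The median over the members was 0.09, beside -0.02 over all genes, and 16 had an unadjusted p below 0.05. DESeq2 called 4 annexins, 1 S100 partner and 1 gene of the ferlin, SYT7 and EHD1 group higher. Among the ESCRT-III and VPS4 genes it called 1 lower.

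Library composition moved with shear at the later times. The ribosomal protein share of counts was 7.34 ± 0.45% in static and 9.73 ± 0.45% in sheared libraries at 12 h, and 7.63 ± 0.08% and 9.81 ± 0.65% at 24 h (SD, n = 3). With total counts in place of TMM the median of all genes moved to -0.16 at 12 h and -0.18 at 24 h, and the higher share of all calls from 58.0% to 22.8% and from 53.1% to 24.5%. Under that scaling ANXA3 and S100A10 at 12 h and ANXA1, ANXA2, ANXA3 and S100A10 at 24 h still passed as higher. The part of library composition in the differences was not tested beyond that scaling. The 3 nuclear-retained RNAs tested had positive differences at 24 h, with a median of 0.70. In edgeR 0 passed the threshold, and 1 had an unadjusted p below 0.05. In sheared 24 h replicate 3, the 4 listed summed to 477 CPM, whereas no static 24 h library was above 166 CPM. The lowest sheared 24 h library held 50.9 CPM. The part of these RNAs in the 24 h values was not tested beyond the values given without the replicate 3 pool.

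**Figure D4:**
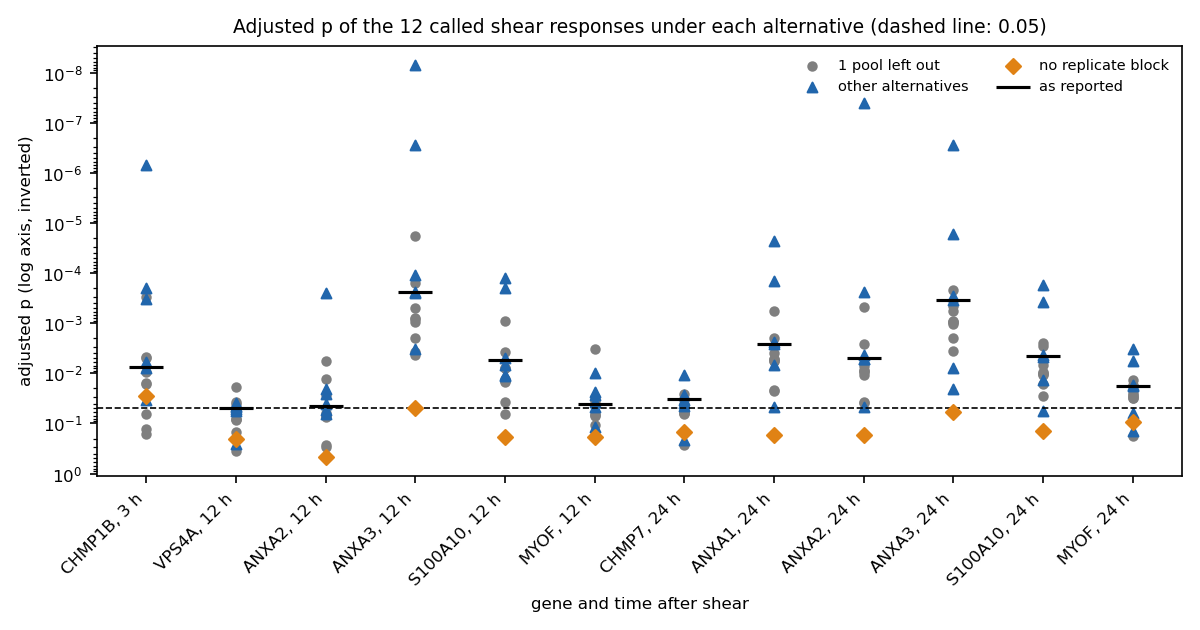
Adjusted p (log axis, inverted) of the 12 called shear responses as reported (bar), with 1 pool left out (grey), with no replicate block (orange) and under the other alternatives (blue), with 0.05 dashed. ANXA3 at 12 h stays above the line throughout, while VPS4A, ANXA2 and MYOF at 12 h have points on both sides.

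The shear effect of 2 members differed between 3 h and 12 h. That of CHMP1B was smaller at 12 h by 0.75 on the log2 scale (-0.75 ± 0.16, edgeR adjusted p = 0.0291), and that of ANXA3 larger (0.82 ± 0.15, adjusted p = 0.00789), against 0.895% of all genes smaller and 0.514% larger. Static CHMP1B went from 66.3 ± 4.94 CPM at 3 h to 101 ± 4.48 CPM at 12 h while sheared cells held 102 ± 1.53 and 92.5 ± 1.76 CPM. Static ANXA3 stood at 104 ± 17.3 and 59.0 ± 6.01 CPM while sheared cells held 101 ± 20.4 and 101 ± 8.04 CPM. These levels cross the batch label, and their change with time was not tested. The CHMP1B difference did not pass without any 1 of the 3 h or 12 h pools (adjusted p of 0.0806 to 0.172), nor that of ANXA3 without 3 h replicate 2 (0.0615) or 3 (0.0678). Between 12 h and 24 h the shear effect of 0 members differed in edgeR or DESeq2, with 0 at an unadjusted p below 0.05, against 0.586% of all genes larger and 0.079% smaller.

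Time in suspension without shear was compared in the 9 static libraries. There 16 members were higher at 24 h than at 12 h and 1 was lower, or 45.7% and 2.86% of the 35, against 16.9% and 15.6% of all 14804 genes tested. The median over the members was 0.35, beside 0.01 over all genes. All 24 h libraries were above all 12 h libraries for 22 members and below for 1, against 22.1% and 20.5% of all genes. With total counts the member median was 0.16 beside -0.18 over all genes, and the higher share of all calls went from 52.0% to 26.3%. Static libraries of the 2 times come from different pools, and the summed epithelial markers stood between 4208 and 4504 CPM at 12 h and between 5761 and 8578 CPM at 24 h. Of the 3 nuclear-retained RNAs tested, 2 were lower at 24 h, MALAT1 (-1.21 ± 0.22, edgeR adjusted p = 8.28e-04) and KCNQ1OT1 (-1.59 ± 0.51, 0.0257), and NEAT1 differed by 0.23 ± 0.23. The part of either marker group in the result was not tested.

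With all 9 static libraries, S100A10 had the largest static change of the members. It went from 698 ± 81.2 to 1318 ± 362 CPM and rose by 0.91 ± 0.16 (edgeR adjusted p = 5.10e-04), and its relative S100A11 rose by 0.75 ± 0.17 (0.00275). Of the annexins ANXA3, ANXA5 and ANXA11 rose, by 0.66 ± 0.17, 0.46 ± 0.15 and 0.62 ± 0.13. The other 5 annexins lay between 0.23 and 0.62 and did not pass (edgeR adjusted p of 0.0612 to 0.252). ANXA2 among them passed in DESeq2 (0.62, adjusted p = 0.0191). In edgeR it passed in the libraries of those times alone (0.60, 0.0253) and without 24 h replicate 1 (0.81, 0.0203). It also passed without 3 h replicate 2 (0.0498) or 3 (0.0133). DESeq2 called 5 annexins higher. CAPN1, CAPN2 and their shared regulatory subunit CAPNS1 rose together, by 0.80 ± 0.13, 0.48 ± 0.11 and 0.54 ± 0.14, as did EHD1, an ATPase that shapes recycling membranes (0.62 ± 0.15), and SYT7 (0.45 ± 0.11). Without static 24 h replicate 3 the rise of S100A10 was 0.65, below that of CAPN1 (0.74). S100A11 then rose by 0.50, ANXA3 by 0.45 (edgeR adjusted p = 0.0496) and CAPN2 by 0.52.

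Of the ESCRT genes 6 rose in static cells, CHMP2A by 0.66 ± 0.14, VPS28 by 0.70 ± 0.13, VPS37B by 0.62 ± 0.15, CHMP4B by 0.35 ± 0.12, CHMP5 by 0.39 ± 0.12 and CHMP6 by 0.41 ± 0.15. DYSF, already low, fell by 0.53 on the log2 scale (SE 0.15, edgeR adjusted p = 0.0151), from between 29.7 and 39.2 CPM to between 22.4 and 27.2 CPM. VPS4B was not called, but passed as lower with total counts (-0.56, 0.0125) and with no filter on low counts (-0.38, 0.0393). It also passed as lower without 12 h replicate 3 (-0.45, 0.0480) or 24 h replicate 1 (-0.58, 0.00193). CHMP2A, VPS28, VPS37B, ANXA3, ANXA11, S100A10, S100A11, EHD1, CAPN1, CAPN2 and CAPNS1 passed under all 15 alternatives, and SYT7 under 14, missing with total counts (0.26, adjusted p = 0.0820). Without static 24 h replicate 3, CHMP4B (0.27, adjusted p = 0.108), CHMP5 (0.32, 0.0681), CHMP6 (0.42, 0.0663), ANXA5 (0.34, 0.104) and DYSF (-0.46, 0.0538) no longer passed. CHMP4B, CHMP6, ANXA5 and DYSF also missed without 12 h replicate 1 (0.0683, 0.188, 0.0674 and 0.0713), CHMP4B, CHMP5 and CHMP6 without 12 h replicate 2 (0.126, 0.0778 and 0.0764) and ANXA5 without 12 h replicate 3 (0.0821). CHMP6 missed without 24 h replicate 2 (0.159) and 3 h replicate 1 (0.0560) or 2 (0.0516), and CHMP4B without 3 h replicate 1 (0.0519). With total counts CHMP4B, CHMP5, CHMP6 and ANXA5 came to 0.16, 0.20, 0.23 and 0.27 and did not pass. In the libraries of those times alone CHMP4B, CHMP5 and CHMP6 had an adjusted p of 0.0804, 0.0559 and 0.0775. CHMP6 shares 21.5% of its exon bases with AC127496.6 on the opposite strand, so its counts are uncertain.

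Set side by side, S100A10 and ANXA3 passed as higher with both shear and time in edgeR. ANXA2, called with shear at 12 h and 24 h, passed with time in DESeq2 (0.62, adjusted p = 0.0191) but not in edgeR with all 9 static libraries. The shear effect at 12 h and the static change share the static 12 h libraries as baseline, so they are not independent. Low values in those libraries would raise both, and the part of that shared baseline was not tested. The shear effect of S100A10 and ANXA3 at 24 h, which also passed, is measured against the static 24 h libraries. Those libraries are the other side of the static change, so that effect is not independent of it either. MYOF was higher with shear at 12 h and 24 h and differed by -0.23 ± 0.14 (edgeR adjusted p = 0.217) between static 24 h and 12 h. In static cells it passed as lower with total counts (-0.42, adjusted p = 0.0376) and without 24 h replicate 1 (-0.39, 0.0274). VPS28, CHMP2A and the calpains were higher with time, and their shear effect did not pass at any time, except that CAPN2 passed as lower at 24 h with total counts. MYOF and EHD1 had higher levels at 3 h, with MYOF at 486 ± 52.9 CPM in static cells, than at the later times (215 ± 21.4 and 184 ± 32.1 CPM), a comparison that crosses the batch label and was not tested.

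Neighbouring genes of the same pathways were counted from lists that hold no member. At 3 h, 0 of the 19 other ESCRT genes, 12 other annexin and S100 genes, 11 other calpain and ferlin genes and 19 other repair genes tested passed in edgeR or DESeq2, with 1, 2, 1 and 2 at an unadjusted p below 0.05. Of the other ESCRT genes, STAM2 of ESCRT-0 was lower at 12 h (-0.57 ± 0.14, edgeR adjusted p = 0.0138), a call lost without 12 h replicate 2 (0.185). At 24 h CEP55, which brings ALIX and TSG101 to the midbody in cell division, and STAMBP, a deubiquitinase that binds ESCRT-III, were higher and VPS37C was lower. CEP55 measured 29.2, 19.9 and 39.3 CPM in static and 54.3, 39.7 and 100.05 CPM in sheared libraries. It rose by 1.08 ± 0.13 (adjusted p = 2.05e-05), and by 0.96 without replicate 3, whose sheared library was the highest. In static cells CEP55 fell by 1.62 on the log2 scale between 12 h and 24 h (SE 0.19, adjusted p = 1.83e-05). STAMBP (0.40 ± 0.13) and VPS37C (-0.52 ± 0.13) did not pass without 24 h replicate 3 (0.267 and 0.117) or in the libraries of that time alone (0.184 and 0.101). STAMBP also missed without 24 h replicate 1 (0.0896), without any 3 h pool (0.0539 to 0.0568) and with total counts (0.23, adjusted p = 0.178).

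The list of other annexin and S100 genes, 3 annexins and 9 S100 genes tested, went in both directions with shear. At 12 h S100A2, S100A16 and S100P were higher and S100A9 was lower, and at 24 h only S100A9 passed. S100A9, known from myeloid cells and also found in epithelia, measured 231, 221 and 280 CPM in static and 132, 136 and 140 CPM in sheared libraries at 12 h. The groups were far apart, and S100A9 fell by 0.83 on the log2 scale at 12 h (SE 0.11, edgeR adjusted p = 1.58e-04) and by 0.82 at 24 h (SE 0.11, adjusted p = 5.89e-05), under all 16 alternatives. S100A2 (1.06 ± 0.28), S100A16 (0.39 ± 0.10) and S100P (0.96 ± 0.23) passed under 8, 10 and 11 of 16, and each missed without 12 h replicate 2 (0.116, 0.110 and 0.112). In the libraries of 12 h alone the adjusted p was 0.159 for S100A2, 0.0570 for S100A16 and 0.150 for S100P, and with total counts it was 0.0670 for S100A2 and 0.121 for S100A16. S100A2 and S100A16 missed without 12 h replicate 3 (0.0727 and 0.0579), S100A16 and S100P without replicate 1 (0.0888 and 0.0716), S100P without 24 h replicate 3 (0.0598), and S100A2 without 24 h replicate 2 (0.0563) or 3 h replicate 1 (0.0555) or 3 (0.0516). In static cells 10 of these 12 were higher at 24 h than at 12 h, ANXA10 and all 9 S100 genes, with S100A4 higher by 1.73 ± 0.15 and S100A9 by 1.42 ± 0.14, each under all 15 alternatives.

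Of the other repair genes CAV1, the coat protein of caveolae, was higher in sheared cells at 12 h and 24 h. Its 12 h static libraries held 363, 348 and 326 CPM and sheared libraries 706, 664 and 681 CPM. At 24 h they held 256, 200.4 and 381 CPM and 601, 536 and 893 CPM, again without overlap. CAV1 rose by 0.98 ± 0.10 at 12 h (edgeR adjusted p = 1.53e-05) and 1.29 ± 0.10 at 24 h (8.52e-07), under all 16 alternatives at both times. Like ANXA3, it had a shear effect larger at 12 h than at 3 h (0.98 ± 0.14, adjusted p = 0.00168). The lysosomal protease CTSB rose at 24 h (0.42 ± 0.11, adjusted p = 0.0125) but missed without 24 h replicate 1 (0.0773), in the libraries of that time alone (0.113) and with total counts (0.26, adjusted p = 0.0699). CAPN15 was the 1 other calpain that passed, at 12 h (0.49 ± 0.15, adjusted p = 0.0472), and missed without 12 h replicate 1, 2 or 3 (0.0597, 0.295 and 0.196), without any 3 h pool (0.0662 to 0.0719) and with total counts (0.33, adjusted p = 0.212). CAVIN1, the caveolar partner of CAV1, stood at no more than 0.126 CPM in any library.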

How the data were processed

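The authors deposited raw read counts per NCBI Gene ID for 18 libraries and, in 1 table per time, their log2 fold changes and adjusted p-values. The submitters' processing notes name STAR, DESeq2 and the build GRCh38.p13. Tool versions, the counter and whether it used strand: not given in the sources used here.

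Library names gave each column its sample. Depth was 16400487 to 25862360 counts. All 18 pairs of replicates differed beyond sampling noise (chi-square over its degrees of freedom at 4.37 or more). With 3 pools a time, p-values of shear effects rest on how sheared against static differences vary between pools. The dispersion is shared over all 18 libraries, so pools of other times also bear on them. In the static comparison they rest on the spread between libraries of the same time.

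edgeR 4.0.16 (R 4.3.3) tested the 15189 genes that filterByExpr kept (minimum count 10, minimum total 15), using TMM scaling and its legacy quasi-likelihood test, robust, at a Benjamini-Hochberg adjusted p of 0.05 over all genes. The model held 9 pools as blocks, plus 1 shear term for each time. The change from 12 h to 24 h without shear was fitted on the 9 static libraries (14804 genes). DESeq2 1.42.0 was an alternative tool. SE is the log2 fold change divided by the root of the F statistic. The fits were tested on simulated counts.

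Pairing is stated in the series' design text. Deviations from the group mean correlated at 0.0881 to 0.299 (3 h), -0.148 to 0.245 (12 h) and 0.379 to 0.504 (24 h) within pools, and at -0.242 to 0.130, -0.385 to 0.233 and -0.296 to -0.0924 between pools.

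All members may be named, with values in every library for those past the threshold and for CHMP4B, ANXA2 and S100A10, and up to 4 genes per context list and time by smallest p. VPS37B at 3 h, CHMP1B at 12 h and 24 h, and CAVIN1 were added after their values were seen. Members, lists and motifs were chosen with earlier results of these data known. Symbols are RefSeq's, and positions and transcript lengths come from GENCODE 29.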

Additional observations from a re-analysis of the deposited data

Results flagged for a closer look

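The shear effect differed between 3 h and 12 h for CHMP1B and ANXA3, by a test of the difference itself. For CHMP1B the 12 h effect minus the 3 h effect was -0.75 on the log2 scale (SE 0.16, edgeR adjusted p = 0.0291), with all 3 pools higher in sheared cells at 3 h and all 3 lower at 12 h. For ANXA3 it was 0.82 (SE 0.15, edgeR adjusted p = 0.00789), with 1 of 3 pools higher at 3 h and 3 of 3 at 12 h. The 3 h libraries carry another batch label than the 12 h libraries, so time and batch cannot be told apart in these differences.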

How the results depend on the processing

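Of 31 called results, 16 alternatives were tried (15 for differences between times and for static cells). A call was kept in 394 of the combinations and lost in 83, and none of them reversed direction. Pairing bears on the calls: with no replicate block, the members higher at 3 h, 12 h and 24 h numbered 1, 1 and 0 in place of 1, 5 and 5, those lower at 24 h 0, and the differences between 3 h and 12 h 0 larger and 0 smaller. The adjusted p of the 5 higher members at 24 h was then 0.167 for ANXA1, 0.1705 for ANXA2, 0.0579 for ANXA3, 0.142 for S100A10 and 0.0940 for MYOF, that of CHMP7 0.151, and at 12 h 0.185 for S100A10, 0.186 for MYOF, 0.205 for VPS4A and 0.460 for ANXA2. Without the block, the differences between times had an adjusted p of 0.144 for CHMP1B and 0.496 for ANXA3. Of the context genes, STAM2, S100A2, S100A16, S100P, CAPN15, VPS37C, STAMBP and CTSB also missed without the block (adjusted p of 0.0927 to 0.268), as did the difference between 12 h and 3 h of CAV1 (0.407). With DESeq2 size factors 3 members were higher at 12 h. With total counts 2 were higher at 12 h, 5 lower at 24 h and 4 lower in static cells. With no filter on low counts the members higher numbered 2 at 3 h and 8 at 12 h, and the members lower numbered 2 at 24 h and 2 in static cells. In the libraries of each time alone 4 were higher and 1 lower at 3 h, and 3 higher and 0 lower at 24 h. With 1 pool left out, members higher ranged from 0 to 2 at 3 h and from 2 to 8 at 12 h, and members lower from 0 to 2 at 24 h. Members with a larger or a smaller effect at 12 h than at 3 h ranged from 0 to 2 each, those with a smaller effect at 24 h than at 12 h from 0 to 1, and those lower in static cells from 0 to 3. The cause was not tested. Leaving out a pool takes away libraries and the values of that pool together, so the 2 cannot be told apart. Total counts also moved the median of all genes in the difference between 12 h and 3 h to -0.10 and in static cells to -0.18. Depth limits CHMP3 and other genes at a few counts per library.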
